A study of Mus musculus with 16 samples.

Results

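The 10 genes described here are glucocorticoid-responsive genes of muscle: Fkbp5, Tsc22d3, Klf15, Klf9, Cebpd, Cebpb, Sgk1, Zbtb16, Pik3r1 and Glul. They were chosen by name, from 20963 genes that the array probes could be matched to, and each was read from the probe designed against one of its RefSeq transcripts. Each gene had 1 such probe, and all 10 probes were well above background on all 16 arrays. RNA from the soleus, a postural hindlimb muscle, of male mice was measured on Agilent 1-colour arrays at day 0, before hypoxia, and at days 3, 7 and 14. Oxygen fell gradually to 10% across the first week and was held there for the second, so day 3 lies within the fall, day 7 at its end and day 14 after a stable week. Day 0 and day 14 have 4 RNA samples each, and days 3 and 7 have 3 each; the design names 4 per day, and any further sample was not analysed here. The labels give no strain, age or genotype and no hour of sampling. They do not tie RNA samples to separate mice either. The p-values therefore measure the spread between these RNA samples, with a part from repeat arrays of day 0 samples 1 and 2.

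Glucocorticoids act through the glucocorticoid receptor, a steroid receptor held by chaperones in the cytoplasm that moves to the nucleus on binding hormone and raises or lowers transcription. In skeletal muscle the pathway is known for shifting fuel use, restraining insulin and growth signalling and speeding the breakdown of protein into amino acids. FKBP51, the product of Fkbp5, binds the receptor complex and damps its response to hormone, which makes Fkbp5 both a target and a brake of the pathway. Several of the genes also follow the daily rhythm of the hormone and of the circadian clock.

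The arrays lie on 2 slides. Slide 1 holds days 3 and 7 and day 0 samples 1 and 2, and slide 2 holds day 14 and all 4 day 0 samples. The slides differed in brightness, with the 75th percentile of intensity at 203 to 271 on slide 1 and 49.1 to 77.0 on slide 2, and 48.3 to 55.3% against 37.9 to 42.9% of spots well above background. Values below are log2 intensity relative to the 75th percentile of the same array; 0 is the level of that percentile. They were corrected for slide with the difference that a linear model (limma) estimated mainly from the day 0 samples run on both. Each difference below is a later day minus an earlier day on this log2 scale, with its standard error (SE), and a gene is said to have risen or fallen where the adjusted p (Benjamini-Hochberg over 22126 features) was under 0.05. All 12 soleus markers, Myh7 and Tnni1 among them, were well above background on every array, and their summed log2 level, which the brightest of them set, lay between 13.3 and 13.7 in every RNA sample. Single markers fell all the same: Tnni1 by 0.87 at day 3 and by 1.05 at day 7 (adjusted p = 0.0286 and 0.00451), and Actn2 and Tnnc1 by 0.60 and 0.51 at day 7 (0.0185 and 0.0390). Of the 12 markers 3 fell at day 7 and none rose, where 23.8% of all features were called (8.14% lower). Without day 0 sample 2 none of the 12 was called. In a whole muscle, fewer cells of a type and less RNA per cell cannot be told apart.

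Promoter sequence from RefSeq (GRCm38.p6) was matched for 8 of the 10 genes, in 16 windows that cover the 250 bases before an annotated start. Single windows of Sgk1, which has 6, and of Tsc22d3, which has 3, are shown. They hold letters of the glucocorticoid response element, to which the receptor binds. The windows of Klf9 and Glul are shown because these genes passed the test over days. The windows shown lie at chr10:21993640-21993889 (plus strand) for Sgk1, chrX:140600523-140600772 (minus strand) for Tsc22d3, chr19:23140976-23141225 (plus strand) for Klf9 and chr1:153899679-153899928 (plus strand) for Glul. Each runs 5′ to 3′ towards the start, and capitals mark the half-site AGAACA or its complement TGTTCT, the core ACANNNTGT and the E-box CACGTG.
Sgk1: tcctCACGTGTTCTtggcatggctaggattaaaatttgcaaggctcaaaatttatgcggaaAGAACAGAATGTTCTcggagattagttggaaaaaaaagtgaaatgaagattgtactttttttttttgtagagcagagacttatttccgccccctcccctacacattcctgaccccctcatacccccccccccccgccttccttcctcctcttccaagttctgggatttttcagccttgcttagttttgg
Tsc22d3: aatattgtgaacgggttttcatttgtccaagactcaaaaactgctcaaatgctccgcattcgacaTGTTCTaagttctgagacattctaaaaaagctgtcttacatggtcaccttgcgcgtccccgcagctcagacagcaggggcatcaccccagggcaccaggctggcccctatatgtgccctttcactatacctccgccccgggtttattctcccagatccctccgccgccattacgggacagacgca
Klf9: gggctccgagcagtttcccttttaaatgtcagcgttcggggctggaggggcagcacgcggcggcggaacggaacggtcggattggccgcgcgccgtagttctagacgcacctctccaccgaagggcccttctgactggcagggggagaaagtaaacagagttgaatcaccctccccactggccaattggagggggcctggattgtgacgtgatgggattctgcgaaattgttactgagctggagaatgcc
Glul: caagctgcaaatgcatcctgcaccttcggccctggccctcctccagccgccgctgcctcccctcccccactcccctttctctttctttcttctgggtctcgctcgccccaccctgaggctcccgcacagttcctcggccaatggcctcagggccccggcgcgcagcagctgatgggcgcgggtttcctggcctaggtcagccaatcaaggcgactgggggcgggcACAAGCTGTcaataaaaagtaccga
The Sgk1 window holds the full palindrome, AGAACA and TGTTCT with 3 free bases between them, as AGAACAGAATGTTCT, beginning 189 bases before the start. Among 32851 windows of the same length that palindrome occurred in 3, or 0.00913%. The same Sgk1 window has an E-box whose last letters overlap a further TGTTCT. A half-site was in 16.1% of all windows and in 4 of the 16 windows of these genes, belonging to Sgk1 and Tsc22d3. Sgk1 has 6 of the 16 windows and Tsc22d3 has 3, so counts of windows weigh these genes most. The core was in 5.84% of all windows and in 3 of the 16, from Sgk1 and Glul, and in Glul it begins 25 bases before the start. An E-box was in 6.02% of all windows and in 3 of the 16, from Klf15, Sgk1 and Fkbp5. Both strands were searched, and a match describes letters in the window and nothing more.

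Glul was lower at day 7 than at day 0 and was the only gene of the 10 to pass the test in a comparison of single days. Klf9 and Glul passed the test for a change at any day (moderated F test, adjusted p = 0.0262 and 0.0442), which 17.1% of all features passed. Klf9 stood highest at days 7 and 14, and Glul lowest at day 7. The other 8 genes did not pass either kind of test, with the nearest, Pik3r1, at an adjusted p of 0.102 in the F test.

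**Figure D1:**
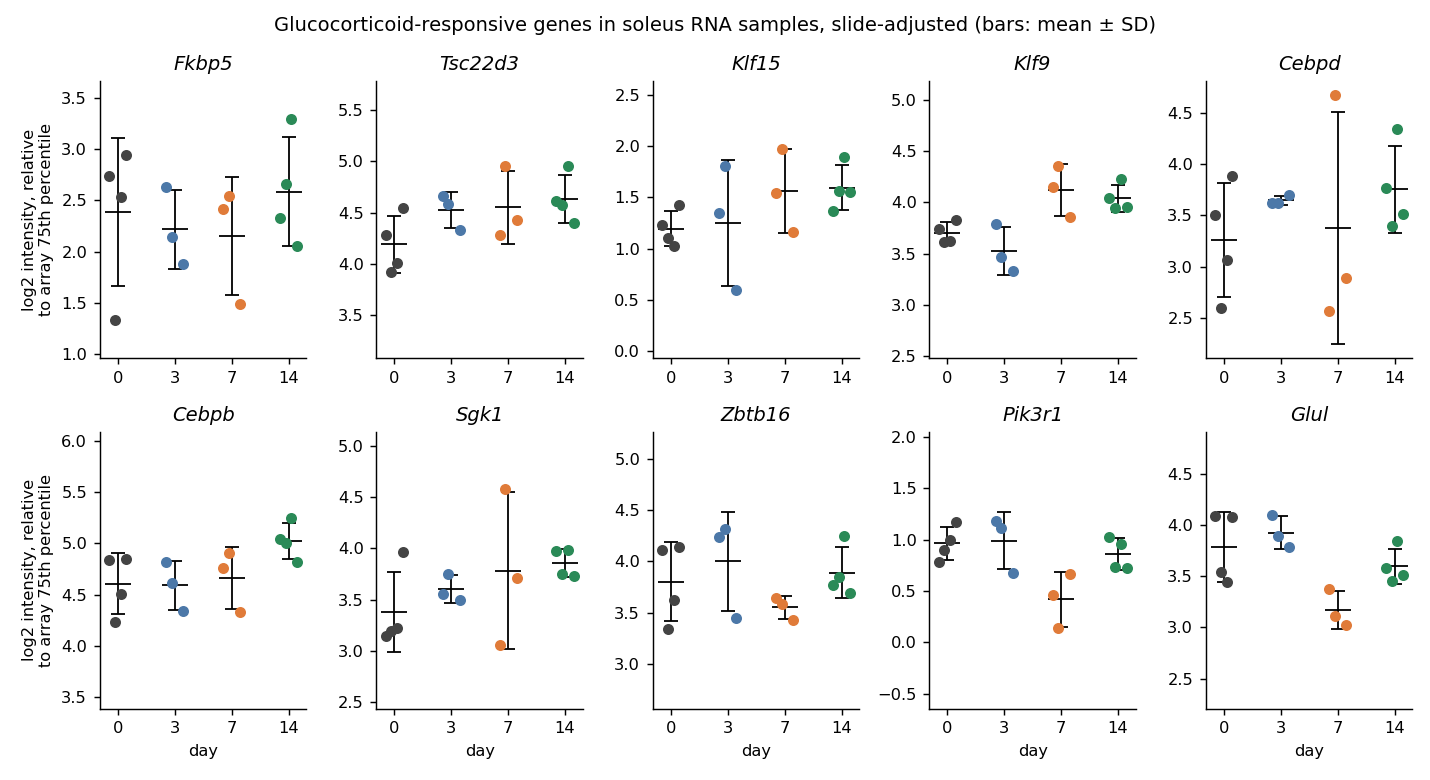
Level of each of the 10 genes in every RNA sample (points) by day on the x axis, as slide-adjusted log2 intensity relative to the 75th percentile of the array, with the day mean ± SD (bars); all panels span the same number of log2 units. Klf9 at day 7 and at day 14 lies above every day 0 sample, and Glul at day 7 lies below every sample of days 0 and 3.

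Among genes of receptor feedback and the anti-inflammatory response, neither changed past the test at any day. Fkbp5 had 2.74, 1.33, 2.54 and 2.94 in day 0 samples 1 to 4. It had 2.63, 2.14 and 1.88 at day 3 (samples 1, 2 and 4), 2.42, 2.55 and 1.49 at day 7 (samples 1, 2 and 4) and 2.33, 2.66, 3.29 and 2.06 at day 14 (samples 1 to 4). The days overlapped throughout, and the widest spread was at day 0, where sample 2 lay far below the rest. The differences from day 0 were -0.11 at day 3, -0.18 at day 7 and 0.25 at day 14 (adjusted p = 0.911, 0.826 and 0.75). The 95% interval of the day 14 difference, as a fold, ran from 0.669 to 2.12, so a doubling of Fkbp5 was not outside what these samples allow.

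Tsc22d3 encodes GILZ, a leucine zipper protein through which glucocorticoids quieten inflammatory signalling. In the sample order used above, it had 4.28, 3.92, 4.01 and 4.55 at day 0, 4.66, 4.59 and 4.33 at day 3, 4.28, 4.96 and 4.43 at day 7, and 4.61, 4.58, 4.95 and 4.40 at day 14. Each later day had a higher mean than day 0, but day 0 sample 4 lay among the later values. The day 14 difference was 0.46 ± 0.18 (SE; adjusted p = 0.181), a fold of 1.37 (95% interval 1.05 to 1.79). With no slide term in the model the adjusted p was 0.0480 and with slide 2 alone 0.184.

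Of the 5 transcription factors, Klf9 had the clearest course. Klf9 encodes a zinc finger factor of the Krüppel-like family that the receptor induces and that follows the daily hormone rhythm. It had 3.74, 3.62, 3.62 and 3.83 at day 0 and 3.78, 3.47 and 3.33 at day 3. At day 7 it had 4.14, 4.36 and 3.85, and at day 14 it had 4.04, 3.94, 4.22 and 3.96. Every day 7 and day 14 sample was above every day 0 and day 3 sample. The difference from day 0 was 0.42 ± 0.16 at day 7 (adjusted p = 0.0668) and 0.34 ± 0.12 at day 14 (adjusted p = 0.159), and day 7 exceeded day 3 by 0.59 ± 0.14 (adjusted p = 0.0825). None of these passed the test by itself, unlike the F test. The F test was lost without day 0 sample 1 (adjusted p = 0.0879), day 0 sample 2 (0.134), day 7 sample 1 (0.0675) or day 7 sample 2 (0.0592).

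Klf15, a factor of the same family that induces enzymes of amino acid breakdown and fat use, did not pass the test. It had 1.23, 1.10, 1.03 and 1.42 at day 0, 1.34, 1.80 and 0.59 at day 3, 1.54, 1.97 and 1.16 at day 7, and 1.36, 1.56, 1.89 and 1.55 at day 14. Day 3 sample 4 had the lowest value of the series and day 7 sample 2 the highest. The day 14 difference was 0.40 ± 0.23 (adjusted p = 0.341).

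The C/EBP factors Cebpd and Cebpb, which take part in fat cell formation, inflammation and muscle wasting, did not pass the test. Cebpd had 3.50, 2.60, 3.06 and 3.88 at day 0, 3.62, 3.62 and 3.70 at day 3, 2.57, 4.67 and 2.89 at day 7, and 3.77, 3.39, 4.34 and 3.51 at day 14. The day 7 samples spanned 2.10 log2 units, from the lowest to the highest value of the gene, while the day 3 samples spanned 0.079. Cebpb had 4.84, 4.23, 4.51 and 4.85 at day 0, 4.81, 4.62 and 4.34 at day 3, 4.76, 4.90 and 4.33 at day 7, and 5.04, 5.0, 5.24 and 4.82 at day 14. For Cebpb 3 of the 4 day 14 samples lay above all samples of the other days. Its day 14 difference was 0.43 ± 0.17 (adjusted p = 0.195), against 0.53 ± 0.41 for Cebpd (adjusted p = 0.49).

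Zbtb16 encodes PLZF, a transcription factor strongly induced by steroid hormones in several cell types. It had 4.11, 3.34, 3.62 and 4.14 at day 0, 4.24, 4.32 and 3.45 at day 3, 3.64, 3.59 and 3.43 at day 7, and 3.77, 3.85, 4.25 and 3.69 at day 14. The day 7 samples sat close together and below all day 14 samples, but within the day 0 range. No difference passed the test, and the day 7 difference from day 0 was -0.24 ± 0.28 (adjusted p = 0.583).

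Sgk1 and Pik3r1 act in signalling. SGK1 is a kinase close to AKT that controls ion and amino acid transport, and its gene carried the palindrome printed above. Sgk1 had 3.14, 3.20, 3.22 and 3.96 at day 0, 3.56, 3.75 and 3.50 at day 3, 3.06, 4.58 and 3.71 at day 7, and 3.97, 3.75, 3.98 and 3.73 at day 14. Day 0 sample 4 stood apart from the other day 0 samples at about the day 14 level, and day 7 ran from below day 0 to above day 14. The day 14 difference was 0.51 ± 0.27 (adjusted p = 0.298).

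Pik3r1 encodes p85 alpha, the regulatory subunit of phosphoinositide 3-kinase, which in excess restrains insulin signalling. It had 0.78, 0.90, 0.99 and 1.17 at day 0 and 1.18, 1.12 and 0.67 at day 3. It had 0.46, 0.13 and 0.67 at day 7 and 1.02, 0.73, 0.96 and 0.72 at day 14. The day 7 samples were the 3 lowest of the series. The day 7 difference from day 0 was -0.52 ± 0.19 (adjusted p = 0.0659), a fold of 0.696 (95% interval 0.521 to 0.929). It was -0.78 (adjusted p = 0.0143) with no slide term, -0.97 (adjusted p = 0.0024) with no slide term and no slide 1 arrays of day 0, and -0.46 (adjusted p = 0.189) on slide 1 alone. The day 0 samples run on both slides read higher on slide 2, by 0.58 for sample 1 and by 0.17 for sample 2.

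Glul encodes glutamine synthetase, the enzyme that joins ammonia to glutamate and makes muscle a source of glutamine. It had 4.09, 3.54, 3.45 and 4.07 at day 0 and 4.10, 3.89 and 3.79 at day 3. It had 3.37, 3.12 and 3.02 at day 7 and 3.58, 3.46, 3.84 and 3.51 at day 14. Every day 7 sample was below every other sample. Glul fell at day 7 against day 0, by 0.62 ± 0.20 on the log2 scale (adjusted p = 0.0409, limma), a fold of 0.650 (95% interval 0.480 to 0.880). Against day 3 the difference was -0.75 ± 0.19 (adjusted p = 0.0874), and at day 14 against day 0 it was -0.20 ± 0.16 (adjusted p = 0.524).

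The direction for Glul was the same on slide 1 alone, where, without slide correction, day 0 samples 1 and 2 had 3.97 and 3.39 and the day 7 samples had 3.25, 2.99 and 2.90. That difference was -0.64 (adjusted p = 0.0801). The call rested on few samples. It was lost without day 0 sample 1 (difference -0.40, adjusted p = 0.274), day 0 sample 2 (-0.83, 0.0835), day 7 sample 2 (-0.59, 0.111) and day 7 sample 4 (-0.55, 0.0963). Without day 0 sample 4 or day 14 sample 1 it was also lost, by a narrow margin (adjusted p = 0.05 and 0.0502). With the day 0 arrays of slide 1 and the slide term both dropped, Glul differed by -0.87 (adjusted p = 0.00568), and with the slide term alone dropped by -0.79 (0.0131). The Glul F test was lost without any 1 of 10 of the 14 samples, with adjusted p between 0.0112 and 0.12 over all alternatives.

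**Figure D2:**
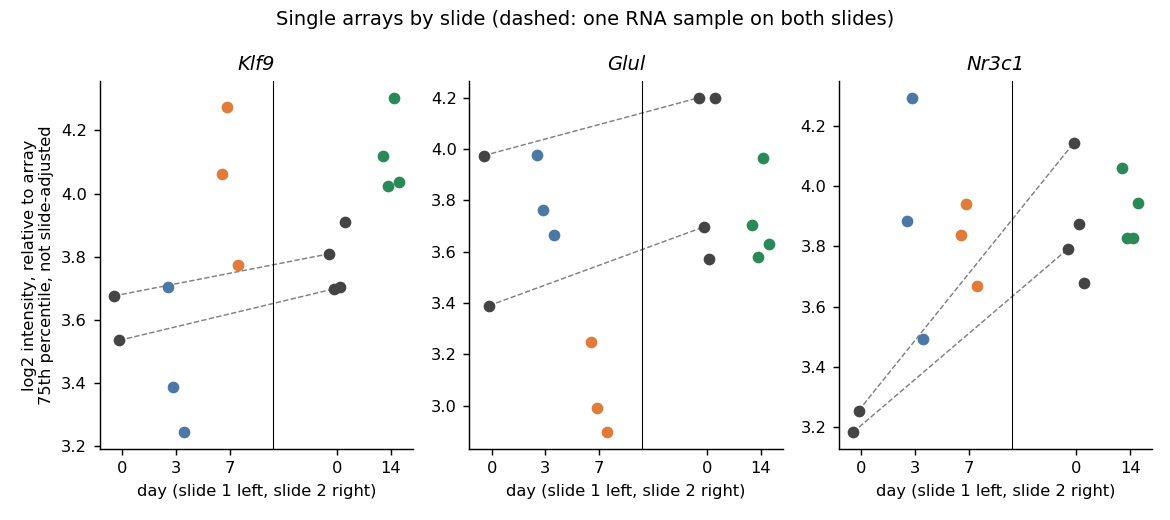
Single arrays of Klf9, Glul and Nr3c1 by day, slide 1 left and slide 2 right of the line, as log2 intensity relative to the 75th percentile of the array and without slide correction; dashed lines join the day 0 RNA samples run on both slides. On slide 1 the 3 day 7 arrays of Glul (2.90 to 3.25) lie below both day 0 arrays, those of Klf9 (3.77 to 4.27) lie above both, and Nr3c1 in the same 2 day 0 samples reads 3.18 and 3.26 on slide 1 but 3.79 and 4.14 on slide 2.

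By comparison, the 10 genes moved little at day 3, in both directions at day 7 and mostly upwards at day 14. At day 3 none passed the test, which 6.09% of all features passed, and none had an unadjusted p under 0.05 (5578 of 22126 features had). No gene's day 3 samples were all outside the day 0 range (30.7% of features). Of the differences, 7 were above 0 and 3 below (56.5% of all features were above), with a median of 0.09 against 0.06 over all features.

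At day 7, 1 of 10 was called, Glul, against 23.8% of all features (8.14% lower). Klf9, Pik3r1 and Glul reached an unadjusted p under 0.05, as 8078 of 22126 features did. These genes also had day 7 samples outside the day 0 range, as 41.7% of all features did. The median difference was 0.11, against 0.09 over all features, and 6 of the 10 lay above 0 (57.2% of all features).

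At day 14 none was called, where 0.402% of all features were. At an unadjusted p under 0.05 the count was 3 (Klf9, Tsc22d3 and Cebpb), against 4563 of 22126 features. The differences were above 0 for 8 of the 10, Pik3r1 and Glul being the exceptions, and 58.5% of all features lay above 0. The median was 0.37, against 0.06 over all features. Klf9 alone had no overlap with day 0, which 15.1% of all features shared. Since none of these differences passed the threshold, the shift is given as a description of these samples.

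**Figure D3:**
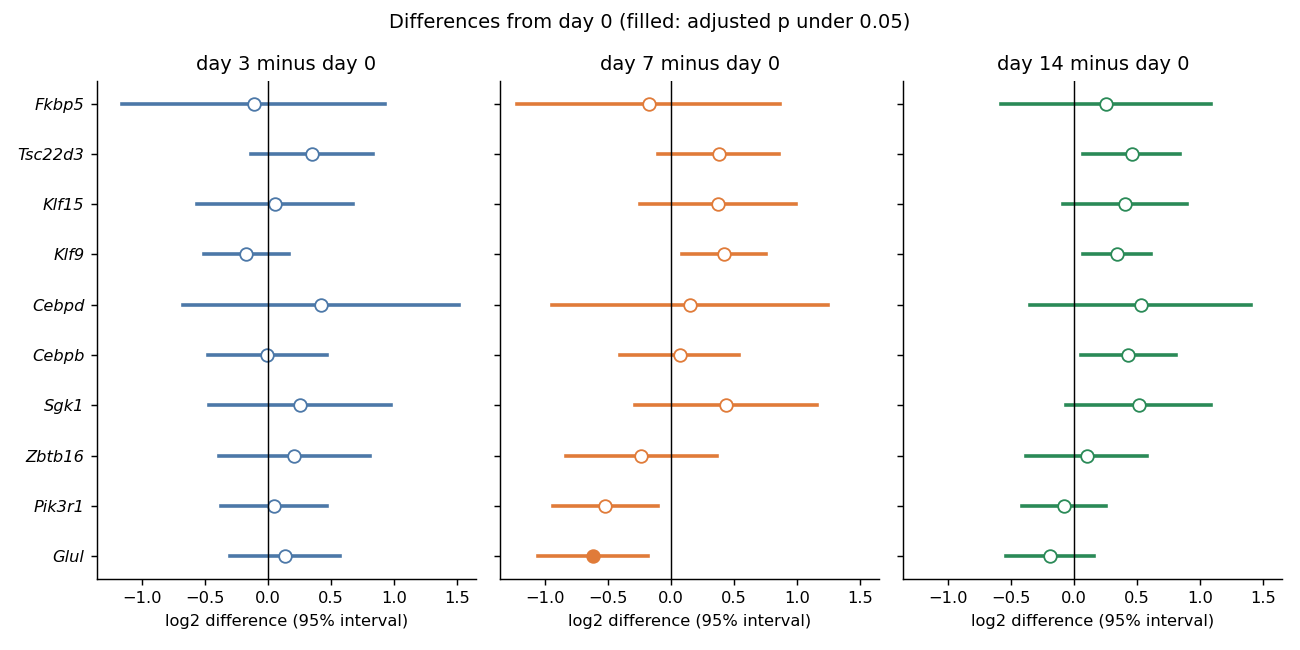
Difference of each gene from day 0 at days 3, 7 and 14 on the x axis, in log2 units with the 95% interval from the limma fit; a filled point has an adjusted p under 0.05. Glul at day 7 is the only filled point, and at day 14 the points of 8 of the 10 genes lie right of 0.

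Between the later days, day 7 and day 3 share a slide. None of the 10 was called in that comparison (0.678% of all features were). Klf9, Pik3r1 and Glul reached an unadjusted p under 0.05, as 3311 of 22126 features did. The samples of these genes did not overlap between the days (17.2% of all features did not). Klf9 was higher and the others were lower at day 7. Differences were above 0 for 5 of the 10 (57.8% of all features). Between day 14 and day 7 none was called (2.3% of all features were). None reached an unadjusted p under 0.05 either (4890 of 22126 features did). Zbtb16, Pik3r1 and Glul were without overlap and higher at day 14 (32.5% of all features did not overlap), with differences of 0.34, 0.44 and 0.43. Differences were above 0 for 9 of the 10, all but Klf9 (46.5% of all features). This comparison crosses the slides: without the slide 1 arrays of day 0 and the slide term, Pik3r1 (0.89), Glul (0.67) and Cebpb (0.69) passed the test (adjusted p = 0.00317, 0.0177 and 0.0230).

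Within a day, many of the genes stood high or low in the same RNA sample. Day 0 sample 4 had the highest value of its day for 9 of the 10, all but Glul, and was the highest of day 0 for 38.3% of all features. Day 14 sample 3 was likewise highest for 9 of the 10 and lay above the day mean for all 10, although it was highest for 20.2% of all features. Day 7 sample 2 was highest for 7 (38.5% of all features). Its Pik3r1 was the lowest of day 7.

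At the other end, day 3 sample 4 was lowest for 9 of the 10 (49.8% of all features), day 0 sample 2 for 6 (26.5%), day 7 sample 4 for 6 (46.4%) and day 14 sample 4 for 6 (29.5%). The median deviation of the 10 genes from the day mean was 0.31 in day 0 sample 4, 0.32 in day 7 sample 2 and 0.27 in day 14 sample 3. Per1, a clock gene that glucocorticoids induce, had 5.43 in day 7 sample 2, against 2.73 and 4.01 in the other day 7 samples. Per1 had 4.99 and 4.92 in day 14 samples 3 and 4, against 4.47 and 4.11 in samples 1 and 2. So the day 14 sample that was lowest for most of the 10 genes was among the highest for Per1. The hour of sampling and the hormone level are not given in the labels, and their part in this spread was not tested.

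**Figure D4:**
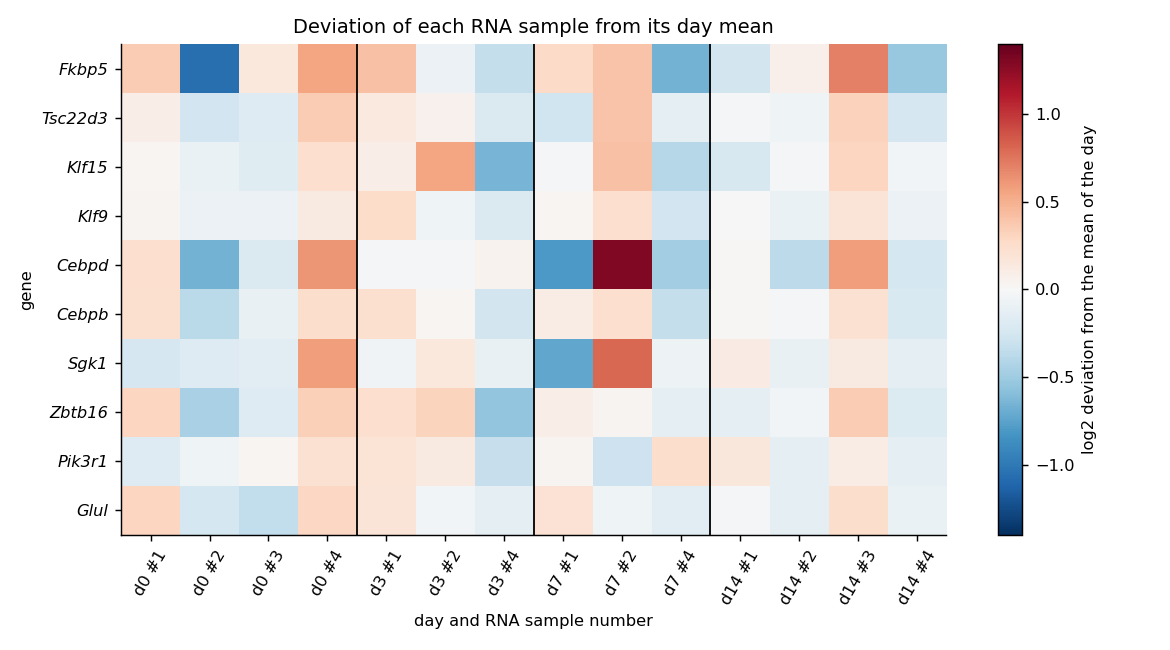
Deviation of every RNA sample (columns, day and sample number) from the mean of its day, in log2 units by colour, for the 10 genes (rows). Day 0 sample 4, day 7 sample 2 and day 14 sample 3 are red in most rows, with median deviations of 0.31, 0.32 and 0.27, and day 3 sample 4 and day 14 sample 4 are mostly blue.

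The receptor and its partners were compared next. Nr3c1, the glucocorticoid receptor itself, had 3.49, 3.70, 3.53 and 3.33 at day 0, 4.23, 4.64 and 3.84 at day 3, 4.18, 4.29 and 4.02 at day 7, and 3.71, 3.48, 3.48 and 3.60 at day 14. In the slide-adjusted values all day 3 and day 7 samples lay above all samples of days 0 and 14. Nr3c1 rose at day 3 by 0.71 ± 0.19 (adjusted p = 0.0429) and at day 7 by 0.64 ± 0.19 (adjusted p = 0.0272), and the day 14 difference was 0.04 ± 0.15 (adjusted p = 0.901).

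These calls for Nr3c1 depended on how the slides were joined. Slide 1 by itself gave 0.67 and 0.60 (adjusted p = 0.171 and 0.111). With no slide term the differences were 0.24 and 0.17 (adjusted p = 0.536 and 0.569). With the slide 1 arrays of day 0 dropped as well, which sets slide 1 directly against slide 2, they were 0.02 and -0.06. The day 3 call held in 8 of 26 alternatives. The mean of its 2 probes gave 0.75 and 0.40 (adjusted p = 0.0523 and 0.194), so the probes did not give the same day 7 difference. The day 7 call was lost without day 0 sample 1 (0.67, adjusted p = 0.0985), day 0 sample 2 (0.64, 0.132), day 7 sample 1 (0.63, 0.068) or day 7 sample 2 (0.58, 0.0932). Hsd11b1, whose enzyme makes active glucocorticoid inside the cell, had no difference past the test, the day 14 value being 0.36 ± 0.12 (adjusted p = 0.14).

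Of 24 tested genes for the receptor, steroid activation and chaperones, 2 rose and 2 fell at day 3, 7 rose and 3 fell at day 7, and none was called at day 14, where 6.09%, 23.8% and 0.402% of all features were called. Over the list the median difference was 0.14, 0.11 and 0.11 at the 3 days. At day 7 the coactivators Ncoa2 (0.81 ± 0.15) and Ncoa1 (0.56 ± 0.13) and the drug and steroid exporter Abcb1a (0.74 ± 0.19) rose, with adjusted p of 0.00378, 0.0088 and 0.0137. Fkbp4, whose product FKBP52 competes with FKBP51 for the receptor complex, fell by 0.99 ± 0.18 at day 7 (adjusted p = 0.00384) and by 0.81 ± 0.18 at day 3 (adjusted p = 0.0262). The co-chaperone Stip1 fell by 0.74 ± 0.15 at day 7 (adjusted p = 0.00543), and the ubiquitin ligase Stub1 fell by 0.51 ± 0.13 at both days (adjusted p = 0.0336 and 0.0119). Hsp90aa1, a chaperone of the receptor, rose at day 3 by 0.60 ± 0.16 (adjusted p = 0.046).

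The list counts at day 7 depended on how the slides were joined. On slide 1 alone 3 of the 24 rose and 2 fell, and without the slide term and the slide 1 arrays of day 0 none rose and 3 fell. Without day 0 sample 2 none was called, and without day 0 sample 1, 3 rose and 2 fell. Over all features, leaving out day 0 sample 2 left 103 called at day 7, against 5261 with every sample.

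Of 37 other tested genes known to be induced by glucocorticoids, none was called at day 3, 3 rose and 4 fell at day 7, and none was called at day 14, with medians of 0.04, 0.01 and 0.06. The 7 called at day 7 are a smaller share than the 23.8% of all features, and the counts show nothing particular to these genes. The muscle-specific ubiquitin ligase Fbxo32 rose at day 7 by 0.72 ± 0.21 (adjusted p = 0.0272), and Pdk4, a kinase that shuts glucose carbon out of the citric acid cycle, rose by 1.18 ± 0.34 (adjusted p = 0.0249). Pdk4 was then lower at day 14 than at day 7, by 1.69 ± 0.40 on the log2 scale (adjusted p = 0.0449). Mstn, the growth inhibitor myostatin, passed the test at day 7 (adjusted p = 0.0198), but no day 0 array and only 2 of the 3 day 7 arrays were above background. Against the background level of day 0, averaged over both slides without slide correction, its day 7 mean was 1.06-fold higher. The size of a rise in Mstn is therefore not known.

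Lcn2, which encodes an iron-carrier binding protein, fell by 1.37 ± 0.33 (adjusted p = 0.0108). Neutrophils also express it. Of 6 tested neutrophil markers 2 fell (S100a8 and S100a9) and 1 rose (Csf3r) at day 7, where 23.8% of all features were called. The median of the 6 was -1.03. Their summed log2 level, 7.18 to 7.40 at day 0 and 7.45 to 7.74 at day 7, went the opposite way to the median. Csf3r, at 7.12 to 7.30 and 7.43 to 7.72, set that sum, which says little of the other markers. Above background on all arrays were 3 of the 6. Without day 0 sample 1 or 2 none of the 6 was called, and the part of neutrophils in the Lcn2 value was not tested. Among enzymes, Bcat2, the mitochondrial enzyme that starts branched-chain amino acid breakdown, fell by 0.81 ± 0.26 (adjusted p = 0.0357). Fam107a fell by 0.53 ± 0.15 at day 7 (adjusted p = 0.0194) and was higher at day 14 than at day 7 by 0.86 ± 0.17 (adjusted p = 0.0265). Per1 passed no test, and its day 14 difference from day 0 was 0.87 ± 0.45 (adjusted p = 0.298). On slide 1 alone 1 of the 37 rose at day 7 and none fell, and without the slide term and the slide 1 arrays of day 0, 1 rose and 5 fell. Without day 0 sample 1, 1 rose and none fell, and without day 0 sample 2 none rose and 1 fell.

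**Figure D5:**
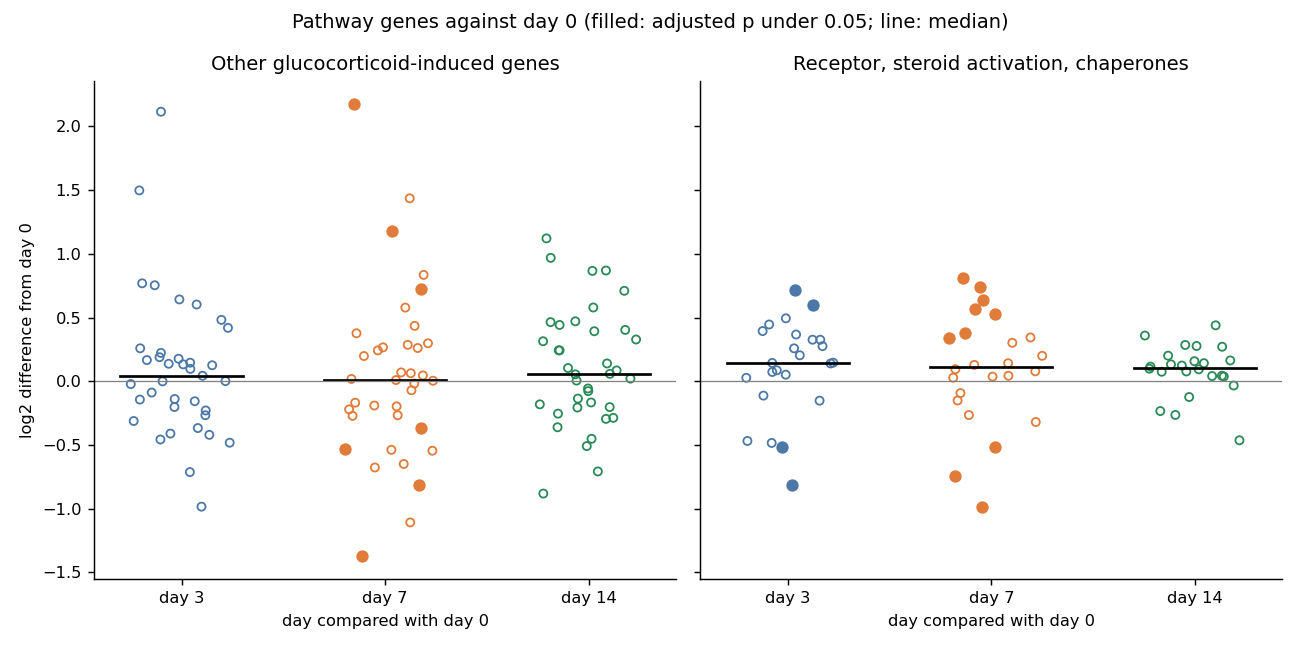
Differences from day 0 (y axis, log2 units) at days 3, 7 and 14 for 37 other glucocorticoid-induced genes and for 24 genes of the receptor, steroid activation and chaperones; each point is a gene, filled points have an adjusted p under 0.05 and lines are medians. The medians lie between 0.01 and 0.14, and the filled points at day 7 lie on both sides of 0.

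Of 30 tested relatives of the 10 genes, in family or pathway, none rose and 2 fell at day 3, 7 rose and 6 fell at day 7, and none was called at day 14 (6.09%, 23.8% and 0.402% of all features). On slide 1 alone or without day 0 sample 1, none rose and 2 fell at day 7, and without day 0 sample 2 none was called. Fkbp8 fell at both days by 1.13 ± 0.24 and 1.16 ± 0.24 (adjusted p = 0.0244 and 0.00603), and Fkbp1a fell at day 3 by 0.76 ± 0.21 (adjusted p = 0.0482). Both are FK506-binding proteins. In the fit with neither the slide term nor the slide 1 arrays of day 0, which holds the whole slide difference, the values were 0.11 and 0.08 for Fkbp8 and 0.37 for Fkbp1a. Klf13 fell at day 7 by 0.87 ± 0.17 (adjusted p = 0.00501) and was higher at day 14 than at day 7 by 0.82 ± 0.20 (adjusted p = 0.049).

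In glutamine handling, Slc38a2, a transporter that brings glutamine into cells, was lower at day 7 than at day 3 by 0.77 ± 0.15 (adjusted p = 0.0432). That call held in 9 of 26 alternatives, with adjusted p up to 0.194. It was lost on slide 1 alone, the slide that holds both days. Cebpz, named with the C/EBP genes, rose at day 7 by 0.53 ± 0.15 (adjusted p = 0.0238).

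Of 11 tested genes that glucocorticoids are known to lower, 1 fell at day 7 and none was called at day 14. Of all features 23.8% and 0.402% were called at these days. Collagen gene Col3a1 fell at day 7 by 1.01 ± 0.33 (adjusted p = 0.0423). At day 3 the only gene past the threshold was Mmp3, a matrix protease whose probe was above background on the 3 day 3 arrays and no others. It entered the test through that day alone, so its tests are not taken as evidence for or against a change. Against the background level of day 0, averaged over both slides, no rise was shown. Against that of day 7, on the same slide, the day 3 mean was 1.81-fold higher. This describes these arrays and is not taken as evidence of a change either.

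Of 18 calls that the naming rule chose from these lists at day 7, 17 were lost without day 0 sample 2 (all but Lcn2), 10 without day 0 sample 1, 10 without day 7 sample 2 and 8 without day 7 sample 1. Their adjusted p then reached at most 0.204, 0.158, 0.136 and 0.0976. Of 7 named calls at day 3, 7 were lost without day 0 sample 2 and 6 without day 0 sample 1 or day 3 sample 2, with adjusted p of at most 0.33, 0.165 and 0.145. The slide settings mattered as well. On slide 1 alone 10 of the 18 and 7 of the 7 were lost, and with no slide term 11 and 6. With the slide 1 arrays of day 0 also dropped 14 and 6 were lost. Wherever 6 of the 7 day 3 calls were lost, the 1 kept was Mmp3, whose tests are not taken as evidence. Over all alternatives Fkbp4 at day 7 came as near 0 as -0.20, Ncoa1 0.05 and Stub1 -0.05, and Hsp90aa1 at day 3 as 0.04. Of 3 named calls at day 14 against day 7, 3 were lost without day 0 sample 1, day 0 sample 2, day 7 sample 1, day 7 sample 2 or day 14 sample 2.

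Genes of other cell types and of the clock were read in the same comparisons. Each summed level below is weighted towards the brightest genes of its list. Of 10 tested macrophage markers none rose and 4 fell at day 7 (8.14% of all features fell), with a median of -0.89. Their summed log2 level was 4.34 to 4.86 at day 0, 4.24 to 5.64 at day 3, 3.80 to 3.96 at day 7 and 4.29 to 4.37 at day 14, and 8 of the 10 were above background on all arrays. On slide 1 alone, without day 0 sample 1 or without day 0 sample 2 none of the 10 was called, with medians of -0.88, -0.60 and -1.21. In summed level the day 7 samples were the lowest for these markers, as they were for Glul, which macrophages also express. Of 11 adipocyte markers none was called on any day, and their summed log2 level was 8.73 to 9.09 at day 0 and 8.99 to 9.37 at day 7. At day 3 Retn, Plin1, Adipoq and Cfd lay above every day 0 sample, by 1.42, 1.45, 1.34 and 1.09 (adjusted p = 0.0683, 0.0697, 0.0828 and 0.128). Lipe lay below, by 0.56 (adjusted p = 0.236), and the other adipocyte markers overlapped. With the replicate number as a block, 4 adipocyte markers were called higher at day 3. Of 10 endothelial markers 1 rose and 2 fell at day 7, a share near the 23.8% of all features called. Of 6 red blood cell markers 4 rose at day 14, where 0.402% of all features were called. The summed log2 level of the 6 was 10.9 to 11.7 at day 14, against 9.45 to 10.02 at day 0. Without day 0 sample 1 none of these 6 was called, and without day 0 sample 2, 1 was.

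Of 15 tested clock genes 1 rose and 3 fell at day 3, 2 rose and 1 fell at day 7 and none was called at day 14. From day 3 to day 7, 6 rose and 1 fell. The differences were 3.26 for Dbp, 1.84 for Per3, 1.16 for Tef, 0.94 for Nr1d2, 0.84 for Cry2 and -2.20 for Nfil3. Ciart differed by 4.72 but was above background on only 8 of the 16 arrays. Of all features 6.09%, 23.8% and 0.402% were called at days 3, 7 and 14, and 0.678% from day 3 to day 7. The summed log2 level of the clock genes was 6.90 to 7.44 at day 0, 6.53 to 6.87 at day 3, 7.65 to 8.19 at day 7 and 7.46 to 7.91 at day 14. The summed level at days 7 and 14 lay above that at days 0 and 3, as Klf9 did, but not every clock gene stood in that order. Nr1d1 was lower at day 7 than at day 0 (-0.97, adjusted p = 0.0368) but 1.10 above day 3 (adjusted p = 0.0967). Arntl, which differed by -0.22 from day 0 and by -0.95 from day 3 at day 7, did not pass the test (adjusted p = 0.651 and 0.144). The part of macrophages, fat or the clock in the Glul and Klf9 values was not tested.

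The profiles most like those of the genes that passed a test were sought among 10373 genes above background on all arrays, by the root mean square distance between mean-centred log2 values over the 14 RNA samples. For Klf9, whose own spread was 0.28 by the same measure, the nearest were Dusp7 at 0.104, Mtmr14 at 0.132 and Thrb at 0.134. For Glul, with a spread of 0.33, they were Pcx at 0.187, Slc39a14 at 0.188 and Slc38a2 at 0.195. Dusp7 lay below its own mean by an average of 0.13 at day 0 and 0.31 at day 3 and above it by 0.25 at day 7 and 0.18 at day 14. Pcx stood 0.21 above its mean at day 0 and, on average, -0.27 from it at day 7. All these profiles share the same arrays and slide correction.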

How the data were processed

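The deposited scanner files hold, per the file headers, a linear intensity for each spot after Agilent's own background subtraction. The deposited series table also holds intensity values, made by the authors in steps not given in the sources used here, and served as an alternative. Here the log2 of each intensity was taken, the array's 75th percentile subtracted and the spots of a probe averaged. Control spots and outlier-flagged spots (99 to 179 per array) were left out, and 37 of 55681 probes had no value on some array. RefSeq transcripts named 27637 probes (49.7%). The filter needed a signal well above background on 3 or more of the 16 arrays and kept 29459 probes; a gene was read from its brightest probe, which gave 22126 features, 14088 of them named genes.

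Day and slide were fixed terms and RNA sample a random block (array correlation 0.448) in limma 3.58.1 with statmod 1.5.0 in R 4.3.3, with Benjamini-Hochberg adjustment over all features and 2-sided tests. Slide-adjusted values split the fitted slide difference evenly and average repeat arrays. The pipeline was tested on simulated data. Precision is limited by how few RNA samples there are. The 10 genes and all lists were chosen with earlier results of these data known. Named from the other lists were Nr3c1, Hsd11b1 and Per1, and in each comparison up to 3 genes per direction by smallest p past the threshold (up to 2 for relatives and genes lowered by glucocorticoids); 1 gene so chosen is not reported here. A fold against a group with no array above background is set against the background level, the dimmest spot called well above background on each array. It has no slide correction and is not a strict lower bound. Alternatives covered background correction (normexp, offset 50, on median spot signals, the files having no mean spot signal), scaling, filters, slide, pairing, probe choice and each RNA sample left out.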

Additional observations from a re-analysis of the deposited data

Results flagged for a closer look

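Sgk1 had 1 day 0 sample apart from the others: sample 4 at 3.96, against 3.22 for the next and 3.14 for the lowest. The gap made up 0.905 of the range of the 4 samples, above Dixon's 95% critical value for a group of that size. Among 20 groups of 4 samples examined over the 10 genes, this was the only one past that value, and chance alone passes about 1 in 20.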

How the results depend on the processing

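Of 1290 recomputed differences of the 10 genes under 27 alternatives, 81 had the opposite sign, and none of those passed the threshold in either fit. At day 7 against day 0, where 1 gene was called, 0 were called with median scaling, with no filter on dim probes, on slide 1 alone or with repeat arrays taken as independent, 2 with no slide term or with neither that term nor the slide 1 arrays of day 0, and 3 among probes above background on all arrays; leaving out 1 RNA sample gave 0 to 2. At day 14 against day 0, 2 were called with no slide term (Tsc22d3 and Klf9) and 0 otherwise. At day 7 against day 3, 2 were called with normexp background or among probes above background on all arrays and 1 with the series table, and 0 to 1 with a sample left out. At day 14 against day 7, 2 were called with no slide term and 3 when the slide 1 arrays of day 0 were also left out. The F test called 0 with median scaling or no filter and 4 with no slide term, with or without the slide 1 arrays of day 0, against 2, and 0 to 2 with a sample left out. At day 3 none was called under any alternative run. With neither the slide term nor the slide 1 arrays of day 0, Nr3c1 turned to -0.056 at day 7, Fkbp8 to 0.11 at day 3 and 0.078 at day 7, and Fkbp1a to 0.37 at day 3. The cause was not tested.

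Median scaling moved the median difference of all features at day 7 from 0.09 to 0.22 and at day 14 against day 7 from -0.04 to -0.27. The share of called features that were higher moved from 65.7 to 83.2% and from 48.6 to 7.70%. Without day 0 sample 1 or 2 the array correlation could not be estimated, and 0.448 was kept.

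With the replicate number as a block, 1 gene was called at day 7 and the F test called 1 gene, Klf9, in place of 2; features called at day 14 numbered 21 in place of 89. Whether the numbers pair the samples was not settled. Of 19 same-number pairs 8 correlated over 0.1, with all 19 between -0.28 and 0.28, and 7 of 14 samples lay closest to their own number. Dim arrays on slide 2 limit low genes there.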
